A study of Mus musculus with 2 samples.

Results

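The 10 genes described here belong to the follicular regulatory program, the set of genes that marks follicular regulatory T (Tfr) cells. They were taken by symbol from the gene list of both libraries (10 of 32285 genes) and are Bcl6, Tox, Tox2, Tshz2, Cxcr5, Pdcd1, Il1r2, Sostdc1, Angptl2 and Il4. The study profiled regulatory T cells (Tregs) from mouse spleen by droplet single-cell RNA sequencing to compare cells that had or had lost CD25, the interleukin-2 (IL-2) receptor alpha chain encoded by Il2ra. The CD25WT group carried the genotype CD25WT/WT-tdTomato+/+-Foxp3eGFPCretERT2+/+, and the CD25KO group CD25FL/FL-tdTomato+/+-Foxp3eGFPCretERT2+/+. Both groups carry the Cre recombinase under Foxp3, so deletion is limited to cells that express Foxp3, and both received tamoxifen intraperitoneally at 2 mg/kg for 5 days, with spleens taken 10 days after induction. Viable cells positive for CD4, GFP and tdTomato were sorted from both, and a gate on low CD25 was applied to CD25KO alone. Each group is 1 library made from 2 pooled spleens, and the animals within a pool cannot be told apart. The sources used here do not give the age of the mice. With 1 library a group there was no test of the genotype, and the intervals given below (95%) cover counting error only.

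Tfr cells are Foxp3-expressing cells that take up the program of follicular helper T cells, enter B cell follicles through CXCR5 and restrain the germinal centre reaction. The repressor BCL6 is needed for this state, and the repressor Blimp-1, encoded by Prdm1, opposes it. IL-2 acts through STAT5, which is known to restrain Bcl6, and Tfr cells are known to carry less CD25 than other Tregs.

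The 2 promoter windows of Bcl6 in RefSeq (build GRCm38.p6) are shown because BCL6 is needed for the follicular state, and because they held the most matches to the pattern below among the 7 genes with a window, a choice made after the search. Each is the 250 bases before a start site, on the minus strand of chromosome 16, outside the annotated exons of Bcl6. The first lies at chr16:23988853-23989102 and the second at chr16:23981284-23981533. Capitals mark each match to TTCNNNGAA, a pattern of STAT factors that reads the same on both strands and that the motif of BCL6 itself also contains.
Bcl6 window 1: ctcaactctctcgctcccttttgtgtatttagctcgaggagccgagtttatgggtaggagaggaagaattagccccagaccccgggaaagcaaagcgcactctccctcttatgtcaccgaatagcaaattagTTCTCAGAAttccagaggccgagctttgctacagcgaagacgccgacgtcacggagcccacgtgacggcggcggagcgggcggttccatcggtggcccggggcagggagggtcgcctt
Bcl6 window 2: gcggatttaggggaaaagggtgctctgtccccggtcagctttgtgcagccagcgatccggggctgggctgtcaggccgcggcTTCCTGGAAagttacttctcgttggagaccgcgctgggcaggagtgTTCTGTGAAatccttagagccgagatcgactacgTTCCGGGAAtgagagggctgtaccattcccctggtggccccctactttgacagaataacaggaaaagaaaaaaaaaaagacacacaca
The first window holds 1 match and the second 3 matches. Of 32851 windows of this length in the table, 2306 (7.02%) held the pattern, and 9 (0.0274%) held it at least 3 times. Windows were found for 7 of the 10 genes, among which Il1r2 had 1 match and Pdcd1, Angptl2, Tox2, Tshz2 and Il4 had none. A match is a description of the letters and says nothing of binding.

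The matrices held 6620 barcodes and 36971834 unique molecular identifiers (UMIs, 1 per captured RNA molecule) for CD25WT, and 7530 barcodes and 36986849 UMIs for CD25KO. Barcodes were kept at 500 or more genes and no more than 10% mitochondrial UMIs, which left 6110 and 6952 cells. Taking out cells with markers of other lineages left 5992 and 6827 T cells with medians of 5223 and 4138 UMIs. The CD25KO library was thus the shallower per cell, and shares of cells are therefore also given after each cell was thinned to 2000 UMIs (5914 and 6461 cells). The libraries shared 107 barcodes, of which 34 and 38 were T cells, and the median log2 ratio over the 10 genes was 1.59 without them against 1.58 with them. Il2ra stood at 126 counts per 1000000 UMIs (CPM) in CD25WT and 32.5 CPM in CD25KO. The sources used here do not name the deleted exons, so reads at the 3′ end of Il2ra do not measure the deletion itself. Foxp3 had a UMI in 961 of 5992 and 678 of 6827 T cells before thinning. Ribosomal protein genes took 39.6% of CD25WT and 31.1% of CD25KO T cell UMIs. Other programs differed between the libraries too: the summed level of 9 effector markers was 756 CPM in CD25WT and 2880 CPM in CD25KO, and that of 8 central markers was 2129 and 1243 CPM. Their part in the results below, and that of the CD25 gate, the pooled animals and the depth, was not tested.

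Summed over T cells, 8 of the 10 genes were at least 1.5-fold higher in CD25KO than in CD25WT, 7 were at least 2-fold higher and 0 were 1.5-fold lower. Over the 8731 genes that reach a mean of 5 CPM, which include all 10, 12.3% were 1.5-fold or more and 4.52% 2-fold or more higher in CD25KO, and 1.89% were 1.5-fold lower. The median log2 ratio (CD25KO over CD25WT) of the 10 genes was 1.58, and that of the 8731 genes was 0.22. Over the 7128 genes that reach 10 CPM the median was 0.21, 10.6% were 1.5-fold higher and 1.46% lower, and 8 of the 10 genes reached that mean. Scaling with TMM factors moved the median of those 7128 genes to −0.02, and the difference of 1.36 between the 10 genes and this median is by construction the same under the 3 other scalings that were tried. The plot of levels by library shows the 10 genes side by side.

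**Figure D1:**
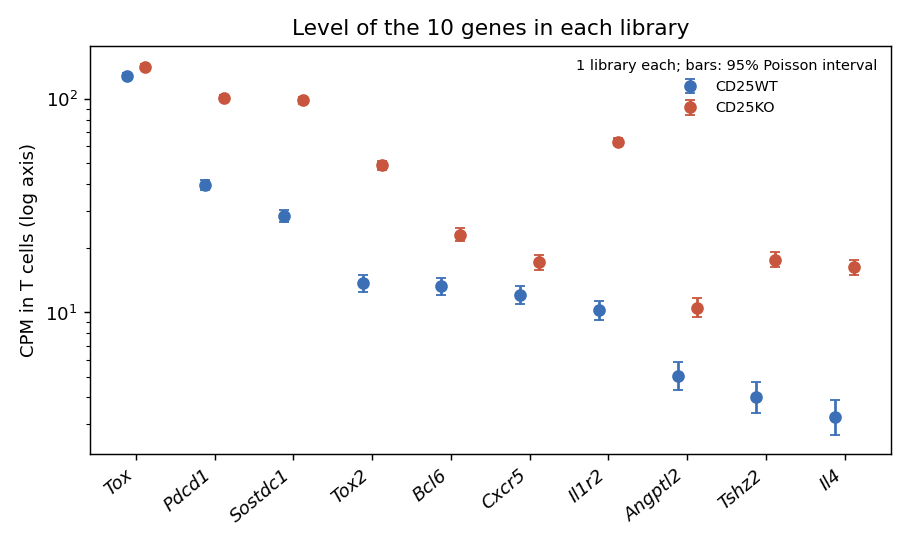
Level of each gene in T cells of each library in CPM on a log axis, with 95% Poisson intervals for counting error and 1 library per group. Tox lies at 128 and 141 CPM, while Il1r2 lies at 10.2 CPM in CD25WT against 63.2 CPM in CD25KO.

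The 4 nuclear factors differed in how far apart the libraries were. Bcl6 (ENSMUSG00000022508, mm10 chromosome 16, 23965052 to 23988852), the repressor that defines follicular T cells, stood at 13.3 CPM in CD25WT against 23.1 CPM in CD25KO, with a log2 ratio of 0.80 (0.63 to 0.97). It had a UMI in 5.82% of CD25WT and 8.67% of CD25KO T cells. Tox2 (ENSMUSG00000074607, chromosome 2, 163203125 to 163324170), an HMG-box protein that promotes follicular helper differentiation, stood at 13.7 CPM in CD25WT against 48.9 CPM in CD25KO, with a log2 ratio of 1.83 (1.68 to 1.98). A Tox2 UMI was present in 4.91% and 16.2% of T cells. Its relative Tox (ENSMUSG00000041272, chromosome 4, 6686353 to 6991557), also known from chronically stimulated T cells, stood at 128 CPM in CD25WT against 141 CPM in CD25KO. The Tox log2 ratio of 0.14 (0.08 to 0.20) lay below the median of all genes and changed sign with the scaling, to −0.10 with TMM factors, −0.094 with median-of-ratios factors and −0.059 without ribosomal protein and mitochondrial genes. It also came to −0.011 when CD25WT was limited to cells with no Il2ra UMI. Tox was the most widely detected of the 10, with a UMI in 40.3% of CD25WT and 40.8% of CD25KO T cells. Tshz2 (ENSMUSG00000047907, chromosome 2, 169633013 to 170071816), a zinc-finger factor of the teashirt family, stood at 4.02 CPM in CD25WT against 17.7 CPM in CD25KO, with a log2 ratio of 2.14 (1.87 to 2.41). Detection of Tshz2 went from 1.60% to 5.86% of T cells. The 2 Tox family genes thus stood apart: Tox2 differed 3.56-fold between the libraries and Tox 1.10-fold.

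Among the receptors, Cxcr5 (ENSMUSG00000047880, chromosome 9, 44511787 to 44561877), the receptor for CXCL13 that leads cells into follicles, stood at 12.1 CPM in CD25WT against 17.2 CPM in CD25KO. Its log2 ratio of 0.50 (0.32 to 0.69) was under 1.5-fold, and it was detected in 5.59% and 6.71% of T cells. Pdcd1 (ENSMUSG00000026285, chromosome 1, 94038305 to 94052553), which encodes the inhibitory receptor PD-1, stood at 39.4 CPM in CD25WT against 101 CPM in CD25KO, with a log2 ratio of 1.36 (1.26 to 1.45). PD-1 transcripts were found in 11.5% and 26.2% of T cells. Il1r2 (ENSMUSG00000026073, chromosome 1, 40074079 to 40125231), the decoy receptor that takes up interleukin-1 without signalling, stood at 10.2 CPM in CD25WT against 63.2 CPM in CD25KO. Its log2 ratio of 2.62 (2.46 to 2.79) was the largest of the 10 genes, and detection went from 2.35% to 11.5% of T cells. Cxcr5, the receptor that gives the follicular state its position, therefore differed least between the libraries among the genes other than Tox.

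The genes of secreted proteins were in few cells. Sostdc1 (ENSMUSG00000036169, chromosome 12, 36314139 to 36318452), an antagonist of BMP and Wnt signalling, stood at 28.3 CPM in CD25WT against 98.4 CPM in CD25KO, with a log2 ratio of 1.80 (1.69 to 1.90). Sostdc1 UMIs were concentrated: they came from 134 CD25WT cells with a mean of 7.31 UMIs each and 411 CD25KO cells with a mean of 8.32. The 1% of cells with the most Sostdc1 held 79.9% of its UMIs in CD25WT and 46.7% in CD25KO. A Poisson interval is therefore too narrow for this gene, whose share of cells with a UMI was 2.24% in CD25WT and 6.02% in CD25KO. Il4 (ENSMUSG00000000869, chromosome 11, 53602982 to 53618669), the cytokine that directs B cell class switching, stood at 3.24 CPM in CD25WT against 16.3 CPM in CD25KO, with a log2 ratio of 2.33 (2.03 to 2.63), and was found in 68 and 347 cells. Angptl2 (ENSMUSG00000004105, chromosome 2, 33216069 to 33247717), a secreted angiopoietin-like glycoprotein, stood at 5.03 CPM in CD25WT against 10.5 CPM in CD25KO. Its log2 ratio was 1.06 (0.80 to 1.33), from 174 and 366 UMIs. The top 1% of CD25WT cells also held 92.0% of Il4, 74.9% of Il1r2, 73.4% of Tshz2 and 68.4% of Angptl2 UMIs, so the intervals of these genes may be too narrow as well. In positive cells the genes other than Sostdc1 had a mean of 1.25 to 2.51 UMIs in CD25WT and 1.30 to 2.80 in CD25KO.

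Free RNA in droplets was gauged in cells with B cell markers and no CD3 UMI, of which there were 20 in CD25WT (median 4361 UMIs) and 21 in CD25KO (median 3555 UMIs). Sostdc1, Tox2, Tox, Il1r2, Angptl2, Il4 and Tshz2 had a UMI in 0 of these cells. Taken as 3 divided by the number of cells, this allows a share of up to 15% and 14.3%. The upper Clopper-Pearson limits were 16.8% and 16.1%. For genes detected in fewer T cells than that, this is no sharp limit. Tox, in 40.3% and 40.8% of T cells, was above this limit from the selected cells. Asking for no CD3 UMI also selects against droplets that caught T cell RNA, so the zeros are partly set by that choice. Among all 46 cells with B cell markers in each library, 26 and 25 held CD3 UMIs. Of the 46, Tox had a UMI in 13 and 13, Pdcd1 in 4 and 9, Tox2 in 2 and 6 and Il1r2 in 1 and 6. Whether these hold free RNA or are doublets was not tested. In the cells without a CD3 UMI, Cxcr5, which B cells express, had a UMI in 7 and 4, Bcl6 in 1 and 0, and Pdcd1 in 0 and 1. The 7 B cell markers summed to 16.7 CPM in the CD25WT and 24.0 CPM in the CD25KO T cells. In T cells with at least 3 of the 10 genes, after thinning, 6 of the 7 were at 0 in CD25WT (sum 3.33 CPM) and 5 of 7 in CD25KO (sum 19.2 CPM). Of the 6 myeloid markers, 5 were at 0 in those cells in each library, where only Cst3 was above 0, and the 6 summed to 173 CPM there against 114 CPM in cells with none of the 10 genes in CD25WT, and to 193 against 142 CPM in CD25KO. In the 23 CD25WT and 15 CD25KO cells rich in haemoglobin (medians of 9567 and 9224 UMIs), of which 15 and 13 also held CD3 UMIs, Tox had a UMI in 5 and 9, Pdcd1 in 4 and 3 and Il1r2 in 1 and 5.

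Pairs of the 10 genes were found together in more cells than independent detection gives, with 1 exception in CD25KO, and cells holding several of them made up a larger share of the CD25KO library. At 2000 UMIs per cell, at least 1 of the genes was found in 27.5% (26.4 to 28.7) of CD25WT and 45.3% (44.1 to 46.6) of CD25KO T cells. At least 3 were found in 150 of 5914 CD25WT cells, or 2.54% (2.15 to 2.97), and in 443 of 6461 CD25KO cells, or 6.86% (6.25 to 7.50). Without thinning the shares with at least 3 were 6.74% and 17.4%. At least 4 were found in 0.964% (0.731 to 1.25) and 2.45% (2.08 to 2.85) of thinned cells. Intervals for shares are Clopper-Pearson intervals. The curve of shares by number of genes lies higher for CD25KO at every number from 1 to 5, thinned or not.

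**Figure D2:**
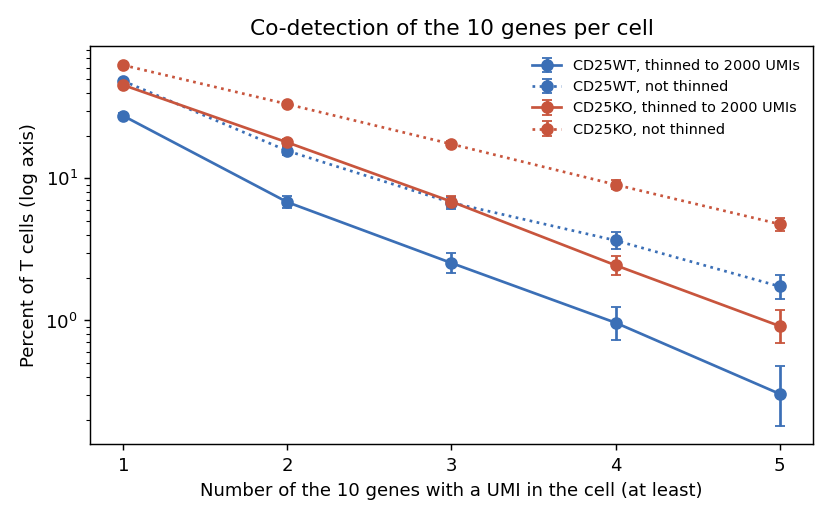
Percent of T cells (log axis) with a UMI of at least the given number of the 10 genes, for each library as deposited and after thinning to 2000 UMIs, with 95% Clopper-Pearson intervals. At 3 genes the thinned shares are 2.54% in CD25WT and 6.86% in CD25KO.

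Of the 45 pairs of the 10 genes, 45 were found in more CD25WT cells and 44 in more CD25KO cells than the product of the single shares gives. The same count over pairs of other genes was not taken, so how far it is particular to these 10 was not tested. The ratio of observed to expected cells had a median of 5.94 in CD25WT (1.80 to 22.3) and 2.20 in CD25KO (0.859 to 5.33). This ratio has a ceiling that falls as the single shares rise, so the lower values in CD25KO, where most shares are larger, are given with no comparison. In CD25WT, Sostdc1 and Tshz2 had the highest ratio, 22.3, with 16 cells against 0.717 expected. In CD25KO, Sostdc1 and Il4 had the highest, 5.33, with 47 cells against 8.81 expected, and this pair had 10 cells against 0.645 in CD25WT. Cxcr5 and Bcl6, the receptor and the repressor that define the state, shared 19 CD25WT cells against 3.20 expected and 33 CD25KO cells against 9.19. Il1r2 and Angptl2 were the exception in CD25KO, with 6 cells against 6.99 expected. Tox had the lowest median over its 9 pairs, 2.09 in CD25WT and 1.57 in CD25KO.

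How far each gene spread beyond cells with the program was read from the number of the other 9 genes in the same thinned cell. Il4, Sostdc1 and Tshz2 were seldom alone: 8.33%, 8.49% and 10.0% of their positive cells in CD25WT had 0 of the others, and 20%, 16.1% and 15.5% in CD25KO. Tox was the most spread, alone in 74.9% of its CD25WT and 52.2% of its CD25KO cells. Cxcr5 was alone in 40.7% and 32.1%, Pdcd1 in 38.5% and 37.3%, and Bcl6 in 36.4% and 31.1%. Il1r2 was alone in 26.6% of its CD25WT cells and 34.5% of its CD25KO cells. These shares also depend on how common the other 9 genes are in a library. The bars of accompanying genes place Il4, Sostdc1 and Tshz2 at one end and Tox at the other in both libraries.

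**Figure D3:**
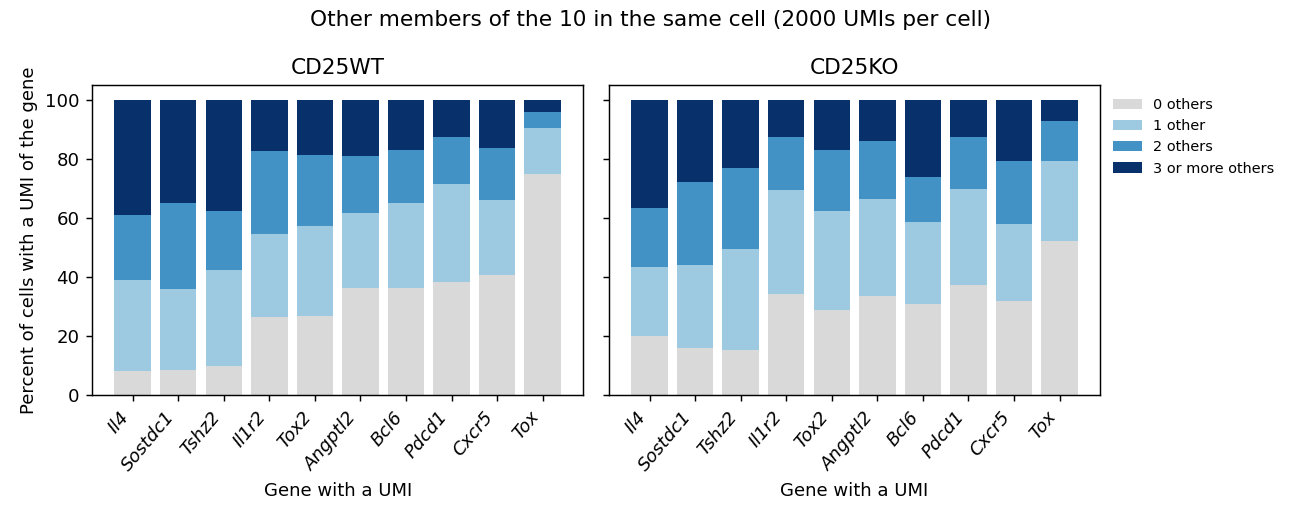
For each gene, the percent of its positive T cells (2000 UMIs per cell) that also held 0, 1, 2 or at least 3 of the other 9 genes, in each library. Tox was alone in 74.9% of its CD25WT cells, and Il4 in 8.33%.

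By size of the log2 ratio, the genes except Tox and Cxcr5 differed most between libraries in cells with 0 of the others. Tox had a log2 ratio of 0.11 (−0.02 to 0.23) in such cells. With 1, 2 and at least 3 of the others, Tox was at −0.59, −0.55 and −0.49. Cxcr5 was at 0.63 with 0 of the others and −0.74 with 2. In cells with 0 of the other genes, Il1r2 stood at 2.62 CPM in CD25WT against 35.5 CPM in CD25KO, with a log2 ratio of 3.80 (3.17 to 4.50). Sostdc1 in such cells was at 3.38 and 21.6 CPM, a log2 ratio of 2.68 (2.10 to 3.30). Tox2 had 2.11 (1.64 to 2.61) and Pdcd1 1.72 (1.45 to 1.99). Il4 and Tshz2 rested on 3 and 4 CD25WT UMIs there, with ratios of 3.89 (2.23 to 6.23) and 3.36 (1.87 to 5.31). In cells with at least 3 of the others the values came close together for several genes: Sostdc1 stood at 664 CPM in CD25WT against 630 CPM in CD25KO, with a log2 ratio of −0.07 (−0.34 to 0.20). Pdcd1 was at 416 and 389 CPM, a log2 ratio of −0.09 (−0.47 to 0.30), and Tox2 at 139 and 174 CPM, 0.32 (−0.26 to 0.93). Il1r2, the interleukin-1 decoy receptor, was still apart there, at 53.0 and 120 CPM, a log2 ratio of 1.18 (0.36 to 2.11). Cxcr5 was lower in CD25KO in those cells, at 107 and 62.8 CPM, with a log2 ratio of −0.77 (−1.47 to −0.04). With each stratum weighted by its share of CD25WT cells, the log2 ratio was 2.46 for Il1r2, 1.60 for Tshz2, 1.45 for Il4, 1.32 for Tox2, 0.98 for Pdcd1, 0.92 for Sostdc1, 0.76 for Angptl2, 0.43 for Bcl6, 0.10 for Cxcr5 and −0.07 for Tox.

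Cells were also clustered with the 10 genes left out of the features, and 8 of the 10 genes had their highest level in the same cluster, number 2, in each library. Its leading genes over all genes were Sostdc1, Tox2, Nav2, Itgb8 and Pdcd1. The 8 follicular regulatory markers outside the 10 genes (Izumo1r, Sh2d1a, Maf, Icos, Cd200, Ascl2, Slamf6 and Il21) were a mean log2 fold of 1.70 higher there than in the other T cells, but 0 of them were among its 10 leading genes, so it is called by its number. These 8 markers were not barred from the clustering features, so their higher level in cluster 2 may be partly built in. It held 405 CD25WT and 1270 CD25KO cells. Of thinned cells with at least 3 of the 10 genes, 68.0% (59.9 to 75.4) in CD25WT and 66.6% (62.0 to 71.0) in CD25KO were in cluster 2. The exceptions to the shared peak were Il1r2, highest in cluster 7 in both libraries, and Angptl2, highest in cluster 5 in CD25WT and cluster 7 in CD25KO. The CD25WT peak of Angptl2 rested on 13 UMIs, at 24.0 CPM (12.8 to 41.0), and its level in cluster 2 was 23.6 CPM (17.4 to 31.3), so the order of these clusters could not be told at this depth. At resolution 0.5, 10 genes in CD25WT and 9 in CD25KO had their highest level in 1 cluster, and at resolution 2, 8 and 8 did. The share of all genes that peak in that cluster was not counted at any resolution. How far the shared peak is particular to the 10 genes was thus not tested. Cluster 7 was led by Egr1, Il1r2, Tnfrsf9, Cd83 and Nfkbid, of which Egr1 is known to be induced by receptor stimulation. Cluster 5 was led by Ccl5, Serpina3g, Cxcr6, Arl5a and Penk.

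**Figure D4:**
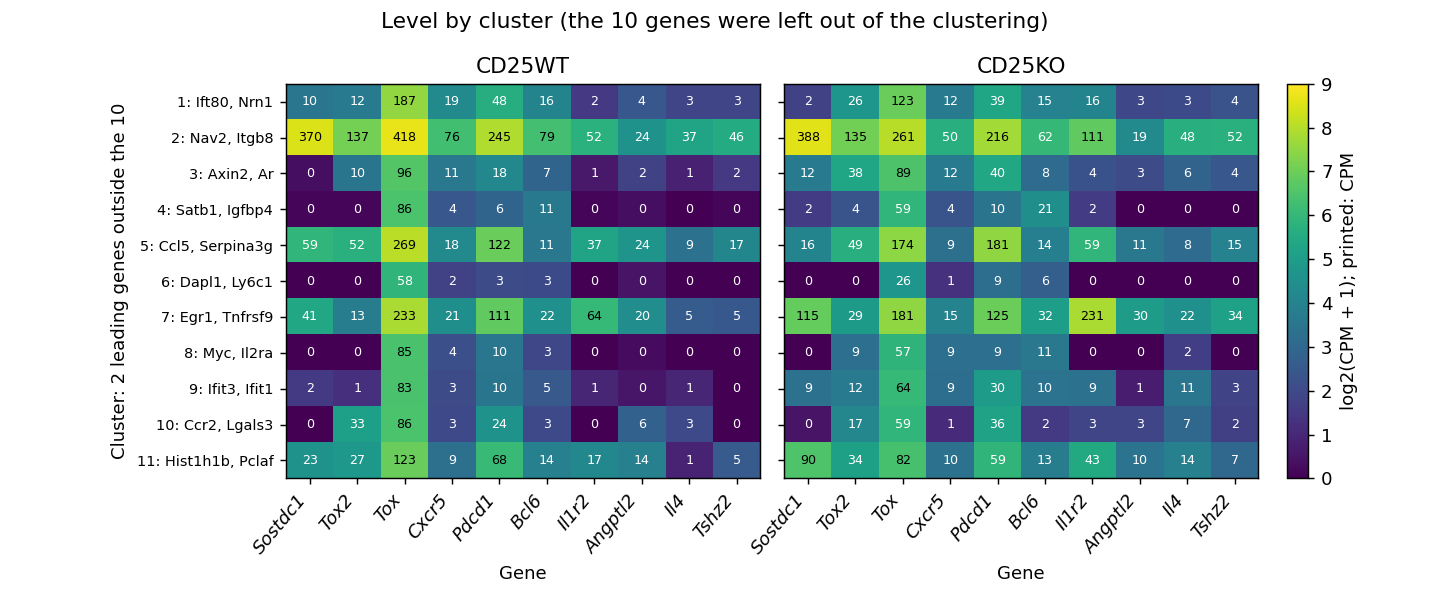
Level of each gene in each cluster with at least 40 cells in both libraries, coloured by log2(CPM + 1) and printed in CPM; clusters are labelled with their 2 leading genes outside the 10. Row 2 is the brightest for 8 of the 10 genes in each library, while Il1r2 reaches 231 CPM in cluster 7 of CD25KO.

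The genes differed in how much of their RNA lay outside cluster 2. Cluster 2 held 76.8% of Sostdc1 UMIs in CD25WT and 72.5% in CD25KO, and 67.0% and 54.7% of Il4 UMIs. It held 36.6% and 39.4% of Pdcd1 UMIs and 19.2% and 34.0% of Tox UMIs. Pdcd1 was next highest in cluster 5, at 122 CPM in CD25WT against 181 CPM in CD25KO, against 245 and 216 CPM in cluster 2. Il1r2 in cluster 7 stood at 63.6 CPM in CD25WT against 231 CPM in CD25KO, and in cluster 2 at 52.2 and 111 CPM. Sostdc1 reached 40.9 CPM in CD25WT and 115 CPM in CD25KO in cluster 7. At least 3 of the 10 genes were found in 0 of 1259 CD25WT cells of cluster 4 (led by Satb1 and Igfbp4), 0 of 1009 of cluster 6 (Dapl1) and 0 of 779 of cluster 8 (Myc and Il2ra), which allows shares of up to 0.238%, 0.297% and 0.385%. In CD25KO the counts were 0 of 210, 0 of 174 and 0 of 99.

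Sostdc1 and Tox2 were close between the libraries within cluster 2 and apart outside it, while Tox and Cxcr5 were lower in CD25KO within it. In cluster 2, 1 of the 10 genes (Il1r2) was 1.5-fold or more higher in CD25KO and 2 (Tox and Cxcr5) were 1.5-fold or more lower. Of 7545 genes that reach a mean of 10 CPM in cluster 2, 2.96% were 1.5-fold higher and 2.78% lower. Sostdc1 stood at 370 CPM in CD25WT against 388 CPM in CD25KO there, a log2 ratio of 0.07 (−0.05 to 0.19), and Tox2 at 137 and 135 CPM, −0.03 (−0.22 to 0.17). Tox was at 418 and 261 CPM, −0.68 (−0.80 to −0.56), and Cxcr5 at 76.3 and 49.6 CPM, −0.62 (−0.90 to −0.33). Bcl6 stood at 79.3 CPM in CD25WT against 62.2 CPM in CD25KO, −0.35 (−0.62 to −0.08). Il1r2 had a log2 ratio of 1.09 (0.79 to 1.40), and Il4, at 36.9 and 48.4 CPM, one of 0.39 (0.02 to 0.77). Median depth in cluster 2 was 4364 UMIs per cell in CD25WT and 4436 in CD25KO.

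Outside cluster 2, 8 of the 10 genes were higher in CD25KO by 1.5-fold or more and 0 were lower by as much. Of 7066 genes there, 10.9% were 1.5-fold higher and 1.44% lower. The log2 ratio there was 2.99 (2.49 to 3.53) for Il4, 2.82 (2.37 to 3.30) for Tshz2, 2.78 (2.58 to 2.98) for Il1r2, 2.30 (2.07 to 2.53) for Tox2 and 2.25 (2.04 to 2.46) for Sostdc1. It was 1.5 (1.38 to 1.61) for Pdcd1 and 0.05 (−0.02 to 0.12) for Tox. The other clusters were filled unequally, with 1264 CD25WT and 215 CD25KO cells in cluster 4, 135 and 1210 in cluster 5, and 400 and 671 in cluster 7. With every cluster weighted by its share of CD25WT T cell UMIs, the log2 ratio was 1.67 for Il1r2, 1.20 for Il4, 0.92 for Tshz2, 0.68 for Tox2, 0.47 for Sostdc1, 0.42 for Bcl6, 0.17 for Pdcd1, −0.01 for Angptl2, −0.26 for Cxcr5 and −0.54 for Tox. Within cluster 7, Tshz2 (2.91, 2.11 to 3.82), Il4 (2.07, 1.29 to 2.94), Il1r2 (1.86, 1.64 to 2.09), Sostdc1 (1.49, 1.21 to 1.79) and Tox2 (1.14, 0.61 to 1.70) had log2 ratios above 1. In cluster 5, where Sostdc1 UMIs came from 3 CD25WT and 18 CD25KO cells, only Il1r2 (0.68, 0.03 to 1.42) among the 10 was at least 1.5-fold higher in CD25KO. Lower there by 1.5-fold or more were 4 genes: Sostdc1 (−1.92, −2.53 to −1.27), Angptl2 (−1.09, −1.98 to −0.09), Cxcr5 (−1.04, −2.06 to 0.12) and Tox (−0.63, −0.88 to −0.36). The share of all genes this far apart was not measured in clusters 5 and 7. Sostdc1 was also lower in CD25KO in cluster 1, at 10.4 CPM from 5 CD25WT cells and 2.45 CPM from 6 CD25KO cells, −2.09 (−3.17 to −1.11). At clustering resolution 0.5 the cluster that held most peaks took in 535 CD25WT and 2346 CD25KO cells and at resolution 2 it took in 198 and 491. Its overlap with cluster 2 (cells in both over cells in either) was only 0.29 and 0.41, so the cell sets differ. The log2 ratio of Sostdc1 in the cluster with most peaks was −0.25 and 0.55, and that of Il1r2 0.65 and 1.23.

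**Figure D5:**
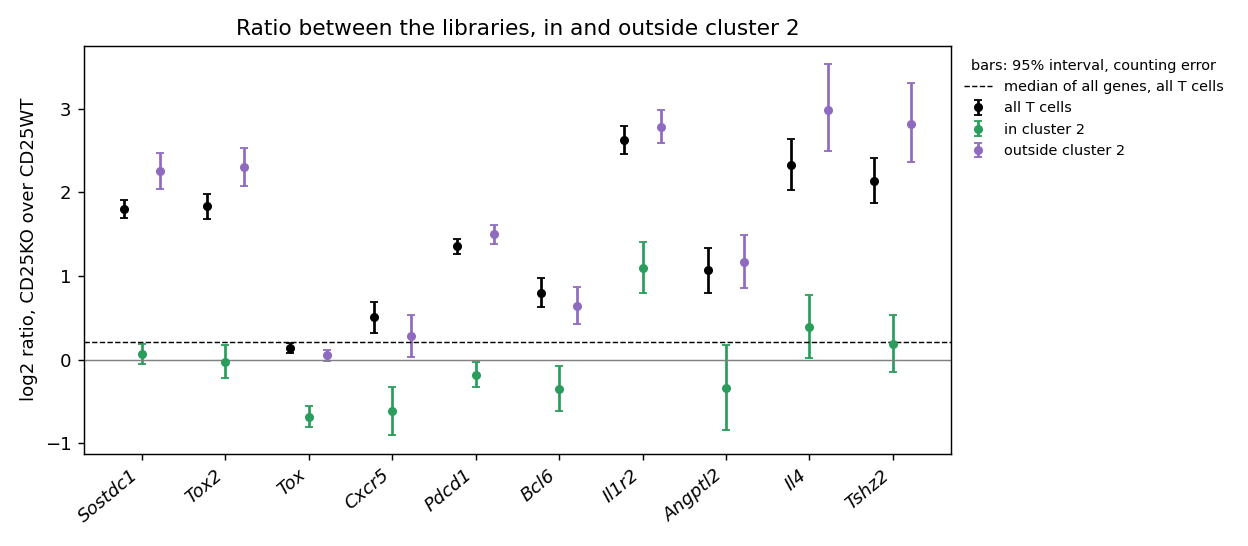
Log2 ratio of CD25KO over CD25WT for each gene over all T cells, within cluster 2 and outside it, with 95% intervals for counting error and the median of all genes as a dashed line. Within cluster 2 Sostdc1 lies at 0.07 and Il1r2 at 1.09, and outside it they lie at 2.25 and 2.78.

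Ikzf2 and Maf were detected in larger shares, and Il2ra in smaller shares, of the cells with several of the 10 genes than of the cells with none. Ikzf2, the gene of the Treg factor Helios, had a UMI in 96.7% of CD25WT cells with at least 3 of the 10 genes and 45.9% of those with none, and in 95.9% and 69.3% in CD25KO. Maf, a factor of follicular T cells, was found in 73.3% against 15.8% in CD25WT and in 81.3% against 44.2% in CD25KO. Il2ra had a UMI in 4% (1.48 to 8.50) against 19.1% in CD25WT and in 2.03% (0.933 to 3.82) against 6.80% in CD25KO. Foxp3 was at 3.33% (1.09 to 7.61) against 6.46% in CD25WT and 2.48% (1.25 to 4.40) against 5.21% in CD25KO. Cd8a had a UMI in 0 of 150 and 0 of 443 cells with at least 3 of the genes, which allows up to 2.00% and 0.677%. General T cell genes were also detected more often in these cells: Cd3e in 92.7% against 68.2% in CD25WT and 91.6% against 77.3% in CD25KO, and Cd4 in 41.3% against 17.7% and 37.5% against 24.6%. All cells here had the same total of UMIs after thinning, and the part of these general differences in the shares of Ikzf2 and Maf was not tested.

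Within the CD25WT library, cells with an Il2ra UMI had less of most of the 10 genes. Sostdc1 was at 4.73 CPM (2.27 to 8.71) in the 1056 thinned cells with an Il2ra UMI and 38.2 CPM (34.4 to 42.3) in the 4858 without. Tox2 was at 3.79 and 17.1 CPM, Pdcd1 at 19.4 and 45.6 CPM, and Bcl6 at 8.52 and 14.4 CPM. Il4 had a UMI in 0 of the 1056 cells, which allows a share of up to 0.284%, and in 36 of the 4858. Tox was closest, at 114 CPM (100 to 129) and 135 CPM (128 to 142). The CD25KO library also had less of most of the 10 genes in cells with an Il2ra UMI (397 thinned cells, against 6064 without). Sostdc1 was at 2.52 and 111 CPM there, Tox2 at 21.4 and 50.2 CPM, Pdcd1 at 80.6 and 104 CPM, and Bcl6 at 10.1 and 25.3 CPM. Il1r2 (63.0 and 56.2 CPM) and Angptl2 (10.1 and 9.48 CPM) went the other way in CD25KO, with overlapping intervals. Since only CD25KO was gated on low CD25, the ratios were also taken against CD25WT cells with no Il2ra UMI before thinning (3902 cells). The median log2 ratio of the 10 genes was then 1.07, against 0.19 over all genes that reach a mean of 10 CPM. Of the 10, 7 were at least 1.5-fold higher, and Bcl6 (0.48), Cxcr5 (0.21) and Tox (−0.011) were not. At least 1.5-fold above the median of all genes were 6 of the 10, against 8 with all CD25WT T cells. The share of all genes 1.5-fold higher was not taken for this comparison. At this depth a cell with no Il2ra UMI may still express the gene.

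Other genes of the follicular pathway were read from 2 lists. Of 24 genes that promote or mark the follicular state, 12 were higher in CD25KO by 1.5-fold or more and 2 lower, with a median log2 ratio of 0.62. Among the 12, Ascl2 and Il21 had means of 3.34 and 4.66 CPM, under the 5 CPM set for the genes compared next. Over all 8731 genes that reach 5 CPM, 12.3% were higher and 1.89% lower by that fold, with a median of 0.22. With TMM factors, which lower every log2 ratio by 0.23, 9 of the 24 were higher and 2 lower. The shares over all genes were not taken with TMM factors, for this list or the next. The largest differences were in Cebpa (2.23), Icos, the costimulatory receptor of follicular T cells (1.69), Maf (1.64), Batf (1.61), Sh2d1a, which encodes the adaptor SAP (1.30), and Irf4 (1.05). The lower genes were Il6ra (−0.79) and Lef1 (−0.71). Of 13 genes that oppose the state or keep cells outside follicles, 2 were higher and 5 lower, with a median of −0.35 beside the same 12.3%, 1.89% and 0.22 over all genes, and with TMM factors 2 were higher and 6 lower. The 2 higher genes were Prdm1, the opponent of Bcl6 (1.83, from 6.34 to 22.6 CPM), and Id2 (1.45). The lower genes included Il2ra (−1.96), Ccr7 (−1.11), S1pr1 (−0.64) and Foxp1 (−0.60). Of these, Il2ra is the targeted gene and encodes the protein that CD25KO alone was gated on. Its direction was thus set by the design, and its place in the count of 5 is no finding about the list.

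In thinned cells with at least 3 of the 10 genes against those with none, several of these genes were far apart within a library. Ascl2, a factor known to induce Cxcr5, was at 20 and 0.583 CPM in CD25WT, from 6 UMIs in the cells with at least 3, and at 40.6 and 1.13 CPM in CD25KO. Il21, the cytokine of follicular helper T cells, was at 33.3 and 0.350 CPM in CD25WT and 28.2 and 0.425 CPM in CD25KO. Cebpa was at 56.7 and 0.583 CPM in CD25WT and 68.8 and 4.67 CPM in CD25KO. In the other direction Klf2, which holds cells outside the follicle through S1pr1, was at 80.0 and 658 CPM in CD25WT and 72.2 and 474 CPM in CD25KO. Id2 differed in sign between the libraries: 173 against 82.6 CPM in CD25WT, and 91.4 against 244 CPM in CD25KO. Prdm1 was at 13.3 against 7.47 CPM in CD25WT, from 4 UMIs in the cells with at least 3, and at 20.3 against 22.5 CPM in CD25KO.

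The genes whose distribution over cells was most like that of the 10 were ranked by the smaller, over both libraries, of the log2 ratio between thinned cells with at least 3 of the 10 and cells with none. Of 4830 genes that reach a mean of 20 CPM, 156 had a smaller ratio of at least 1. The first 15 were Rgs16, Stx11, Itgb8, Tbc1d4, Pdcd1lg2, Nav2, Ccdc28b, Bhlhe40, Eea1, Malt1, Smco4, Hif1a, Tpi1, Plekho1 and Bcl2a1d. Rgs16, a regulator of G protein signalling, was at 107 against 4.55 CPM in CD25WT and 92.6 against 12.9 CPM in CD25KO. Itgb8, an integrin chain that activates latent TGF-beta, was at 153 against 8.75 CPM in CD25WT and 150 against 27.0 CPM in CD25KO. Pdcd1lg2, which encodes the PD-1 ligand PD-L2, was at 73.3 against 9.45 CPM in CD25WT and 116 against 22.5 CPM in CD25KO. The 15 had a smaller log2 ratio from 1.83 (Bcl2a1d) to 2.84 (Rgs16). Summed over T cells, their own log2 ratios of CD25KO over CD25WT went from 0.70 (Tbc1d4) to 2.25 (Bhlhe40).

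Genes that overlap some of the 10 in the annotation could share reads with them. Gm16894, on the strand opposite Il1r2, had 66 CD25WT and 272 CD25KO UMIs, and Bcl9l, opposite Cxcr5, had 961 and 871. Ralgps1, opposite Angptl2, had 209 and 236. Gm11802, opposite Tox, had 13 and 15, and Gm37419, opposite Bcl6, had 0 and 0. Gm37347, on the strand of Il1r2, and 3 genes opposite Tshz2 were not analysed here. The sources used here do not say how strand was used in the counting.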

How the data were processed

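Droplet 3′ libraries were made from sorted splenic Tregs. The deposited matrices hold raw UMI counts per gene and barcode, written by Cell Ranger 6.0.0, per the file headers. The build is mm10, per the submitters' processing notes. The sources used here do not name the annotation. Gene positions come from GENCODE M21 on the same build.

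The 10 genes, the lists and the settings were chosen with earlier results of these data known. Barcodes needed 500 genes and at most 10% mitochondrial UMIs. Cells with at least 2 B cell or 2 myeloid markers, or over 5% haemoglobin UMIs, were set aside (46, 49 and 23 CD25WT cells and 46, 64 and 15 CD25KO cells). Of those with myeloid markers, 44 and 58 carried Cst3, which T cells also hold. No doublet caller was run, and an alternative left out the 5% of cells with the most UMIs.

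UMIs were summed over T cells and scaled to CPM with the total over all genes. Sums have Poisson, ratios exact conditional and shares Clopper-Pearson intervals at 95%. Where 0 cells had a UMI, the share said to be allowed is 3 divided by the number of cells. That value lies somewhat below the upper Clopper-Pearson limit. Thinning to 2000 UMIs left out 78 CD25WT and 366 CD25KO shallower cells. Clustering used Scanpy 1.11.5 (2000 variable genes, 30 components, 15 neighbours) and leidenalg 0.10.2 at resolution 1, without the 10 genes, Il2ra, receptor segments, ribosomal protein, mitochondrial, haemoglobin and sex-linked genes. All 10 genes are named; of the wider lists the 6 furthest apart in each, if past 1.5-fold (1 gene this takes is not reported here); the 15 most alike genes; and the 5 leading genes of a cluster. Other genes named (Il6ra, Lef1, Foxp1, Ascl2, Il21, Klf2, partner genes) were chosen after their values were seen. Ratio and co-detection steps were tested on simulated data. Alternatives were other scalings (TMM from edgeR 4.0.16, median-of-ratios, totals that leave out ribosomal protein and mitochondrial genes), cell filters, cell subsets, thinning depths and resolutions. Leaving out shared barcodes was added after seeing the data.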

Additional observations from a re-analysis of the deposited data

Results flagged for a closer look

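Several values had opposite signs in 2 groups of cells or in the 2 libraries, and with 1 library per group none of these differences was tested. The log2 ratio (CD25KO over CD25WT) lay below 0 in cluster 2 and above 0 outside it for 6 of the 10 genes. It was −0.027 in cluster 2 and 2.30 outside for Tox2, −0.68 and 0.050 for Tox, −0.62 and 0.28 for Cxcr5, −0.18 and 1.5 for Pdcd1, −0.35 and 0.64 for Bcl6, and −0.34 and 1.17 for Angptl2. The intervals in cluster 2 include 0 for Tox2 (−0.22 to 0.17) and Angptl2 (−0.84 to 0.17). The median over all genes was itself −0.018 in cluster 2 and 0.21 outside it. How many of all genes change sign in this way was not counted. The value of 0.050 for Tox is smaller than the 0.23 by which TMM factors lower every log2 ratio over all T cells.

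The log2 ratio between thinned cells with at least 3 of the 10 genes and cells with none had opposite signs in the 2 libraries for 3 genes of the wider lists. It was 1.07 in CD25WT and −1.42 in CD25KO for Id2, an inhibitor of E proteins. It was 0.84 and −0.15 for Prdm1, from 4 CD25WT UMIs in the cells with at least 3, and −0.23 and 0.32 for Il6ra, a chain of the interleukin-6 receptor. The intervals exclude 0 in both libraries for Id2 (0.63 to 1.48 and −1.76 to −1.10). They include 0 in both for Prdm1 (−1.08 to 2.26 and −0.94 to 0.56) and Il6ra (−0.89 to 0.35 and −0.10 to 0.71).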

How the results depend on the processing

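No paired analysis was possible because each group is 1 library, and for the same reason no library could be left out. The count of genes at least 1.5-fold higher, 8 of 10, was 7 to 9 under the 13 scalings, filters and cell subsets. The median log2 ratio of 1.58 was 1.34 with TMM factors, 1.35 with median-of-ratios factors, 1.38 without ribosomal protein and mitochondrial genes, 1.93 at 1000 genes and 5% mitochondrial UMIs, 1.71 without the 5% of cells with the most UMIs, 1.07 against CD25WT cells with no Il2ra UMI, 1.95 in cells with a Foxp3 UMI and 1.74 without cells holding Mki67 or Top2a. The scalings and the Il2ra subset turned Tox to −0.097, −0.094, −0.059 and −0.011; the other 9 genes, over all T cells, stayed above 0 under the alternatives run. The share of T cells with at least 3 genes (2.54% and 6.86%) was 6.74% and 17.4% unthinned, 0.902% and 2.35% at 1000 UMIs, 6.80% and 17.9% for at least 2 genes and 0.964% and 2.45% for at least 4. It was 0.910% and 3.65% under the stricter cell filter (4174 and 3606 cells) and 1.15% and 4.89% in cells with a Foxp3 UMI (961 and 678 cells). In CD25WT it was 3.47% without Il2ra UMIs and 2.15% without Mki67 or Top2a. The cause of these shifts was not tested, apart from thinning and the number of genes asked for, which set the share by construction. Depth limits Il4, Tshz2 and Angptl2, which rest on 112, 139 and 174 CD25WT UMIs.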
